A study of Mus musculus with 220 samples.

Results

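The MHC class II genes described here are the 9 genes H2-Ea, H2-Aa, H2-Ab1, H2-Eb1, H2-DMa, H2-DMb1, H2-DMb2, Cd74 and Ciita, each followed through all of its probe sets on the array. The list of names uses no measured value, although it was drawn up with earlier results of these data known, and the 9 genes have 19 of the 45037 probe sets tested, or 9 of the 17097 genes with a probe set of their own. The samples are livers of 220 female F1 mice, whose mothers came from 96 inbred strains and whose fathers were C57BL/6J males with the human APOE-Leiden and CETP transgenes. APOE-Leiden is a variant of apolipoprotein E and CETP is cholesteryl ester transfer protein, and together they give mice a human-like hyperlipidemia. All groups, C57BL/6J mothers included, carried both transgenes. The mice ate chow up to the age of 8 weeks, then 16 weeks of Western diet, and were 24 weeks old at sampling. The mothers came from 34 BXD strains (C57BL/6J by DBA/2J, 83 mice), 21 AXB/BXA strains (A/J and C57BL/6J, 47 mice), 8 CXB strains (BALB/c and C57BL/6, 17 mice), 4 BXH strains (C57BL/6J by C3H/HeJ, 8 mice) and 29 classical inbred strains (65 mice), C57BL/6J among the last. Because the father was always C57BL/6J, each mouse carried 1 C57BL/6J copy of every autosomal gene, and a difference between strains was measured on top of that shared copy. A strain had 1 mouse (9 strains), 2 mice (51 strains), 3 mice (35 strains) or 4 mice (1 strain), and the labels do not say which mice shared a litter, so p-values measure the spread between these mice.

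MHC class II molecules are pairs of an alpha and a beta chain that carry peptides of engulfed proteins to the cell surface, where CD4+ T cells read them. In the mouse the A molecule is made of H2-Aa and H2-Ab1 and the E molecule of H2-Ea and H2-Eb1. Cd74, the invariant chain, escorts new pairs to the endosome, and H2-DM, made of H2-DMa with H2-DMb1 or H2-DMb2, exchanges the remnant of the invariant chain for peptide. Ciita is the master transcriptional activator of these genes. In liver the class II genes are known mainly from Kupffer cells, dendritic cells and B cells rather than from hepatocytes. Inbred mice of some H2 haplotypes, among them the b haplotype of C57BL/6J, are known to make no E alpha chain.

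The genes other than Cd74 and Ciita lie in the MHC on chromosome 17. Ciita binds no DNA itself but acts through proteins that sit on the X and Y boxes of class II promoters. RefSeq promoter windows on GRCm38.p6, running from 250 bases before to 50 bases after the start, were given for 5 of the 9 genes, and they were searched on both strands for a core X box (TNGNAAC) and a core Y box (TGATTGG). H2-Ab1, H2-Ea, Cd74 and Ciita are named only. The X core alone was in 35.2% of all 32851 promoter windows and the Y core in 7.82%, while an X core followed by a Y core on the same strand, 10 to 30 bases apart and not overlapping, was in 47 of them (0.143%). Among the members it was in H2-Aa, H2-Eb1 and H2-DMb1. Their stretches, shown because the same pair of motifs recurs in 3 genes, are from chr17:34287867-34287906 on the minus strand, chr17:34305774-34305812 on the plus strand and chr17:34153095-34153134 on the plus strand, with both cores in capitals.
H2-Aa: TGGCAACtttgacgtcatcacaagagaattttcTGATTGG
H2-Eb1: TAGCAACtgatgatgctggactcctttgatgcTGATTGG
H2-DMb1: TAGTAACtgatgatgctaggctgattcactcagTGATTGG
The cores were 26, 25 and 26 bases apart. The H2-DMb2 window held the Y core without an X core before it, and neither of the 2 H2-DMa windows held either. These are matches of letters in the C57BL/6J reference, the copy that every mouse had from its father, and not measured binding sites. A relation of the motifs to levels across strains was not tested. H2-Ea itself is annotated by RefSeq as a transcribed pseudogene in this C57BL/6J assembly.

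Each value is a log2 signal of a probe set, normalized by the authors with RMA (robust multi-array averaging), so a difference of 1 is a change by a factor of 2. The array medians were 3.43 to 3.57, the correlation of any pair of arrays was 0.967 to 0.997, and no arrays were identical. The hepatocyte genes Alb, Ttr and Apoa1 averaged 13.52, 13.05 and 13.28 over all mice, near the top of the scale, as the liver label requires. The strain labels were checked with the 46 probe sets in which at least 0.9 of the variance lay between strains. They were picked with the same labels and mice, which favours a match to the own strain in advance. The H2-Ea probe sets 1422892_PM_s_at and 1422891_PM_at, with shares of 0.964 and 0.960, are among them. Of 211 mice with a strain mate, 204 were most like their own strain (median r = 0.985). The 7 others were 3 mice of the related substrains AXB19/PgnJ and AXB19b/PgnJ, BXD20/TyJ mouse 2, BXD21/TyJ mouse 3 and both BXH19/TyJ mice. The 2 BXH19/TyJ mice had r = -0.36 with each other, and the second was most like C57BLKS/J (r = 0.994), as close as the C57BLKS/J mice were to their own strain (lowest r = 0.993). The first was most like BXH22/KccJ, a strain of the same panel (r = 0.824). BXD21/TyJ mouse 3 had r = 0.991 with BXD32/TyJ and 0.493 with its own strain. All these mice are kept under their labels here, and the results that BXH19/TyJ bears on most are also given without it. The array files gave no scan date or batch.

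All 9 genes varied between strains. In limma's F-test over the 87 strains with at least 2 mice, 15 of the 19 member probe sets passed an adjusted p of 0.05, where 47.9% of all probe sets did. The 4 that did not pass were further probe sets of H2-Ea, H2-DMa, H2-DMb2 and Ciita with means of 2.76 to 3.15, under the median of 3.46 over all probe set means. The probe set with the highest mean stands for its gene below. H2-Ea stood apart from the rest, with 0.96 of its variance between strains (adjusted p = 4.43e-76), above 99.97% of all probe sets. The share was 0.65 for H2-Aa, 0.64 for H2-Eb1, 0.58 for Cd74, 0.57 for H2-DMb2, 0.54 for H2-Ab1, 0.54 for H2-DMa, 0.46 for H2-DMb1 and 0.41 for Ciita, with limma adjusted p-values between 2.10e-17 and 2.18e-07. In bulk liver, fewer class II-bearing cells and less class II RNA per cell cannot be told apart.

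H2-Ea, the E alpha chain, was either high or low in a strain. Strain means ran between 2.56 and 10.80 around a median of 7.19, and 50 strains lay above an empty stretch of 1.78 log2 units while 46 lay below it. The upper count is 49 of 95 strains without BXH19/TyJ, whose mean averages a low and a high mouse. The edges of that stretch were RIIIS/J at 6.76 and BUB/BnJ at 4.98, and the next widest empty stretch was 0.47. Within a strain the mice differed by a pooled standard deviation (SD) of 0.63. The BXH19/TyJ mice, with an SD of 5.05, are included and raise this value. The H2-Ea signal of C57BL/6J was low, 2.88 and 2.72 in its 2 mice on the standing probe set. Values of low strains scattered around the array's median signal, and the files carry no detection call, so they do not show that the gene was transcribed there.

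A/J, C3H/HeJ and DBA/2J, parents of the AXB/BXA, BXH and BXD panels, and BALB/cJ, of the same stock as the CXB parent, were all high in H2-Ea. A/J mice had 9.07, 9.45 and 9.13, BALB/cJ mice 10.48, 10.42 and 10.67, C3H/HeJ mice 8.34 and 8.91 and DBA/2J mice 9.87, 10.37 and 10.20, so that no mouse of these strains overlapped with C57BL/6J. Over C57BL/6J the difference in H2-Ea was 6.42 ± 0.56 (SE) in A/J, 7.72 ± 0.56 in BALB/cJ, 5.82 ± 0.62 in C3H/HeJ and 7.35 ± 0.56 in DBA/2J. Each SE rests on the spread pooled over all strains, with the BXH19/TyJ mice included. No fold is given, because the C57BL/6J signal of 2.80 lies under the median of all probe set means. The largest of the 4 limma adjusted p-values was 1.43e-12. All 95 contrasts share the same 2 C57BL/6J mice, so they are given side by side and not as independent findings.

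**Figure D1:**
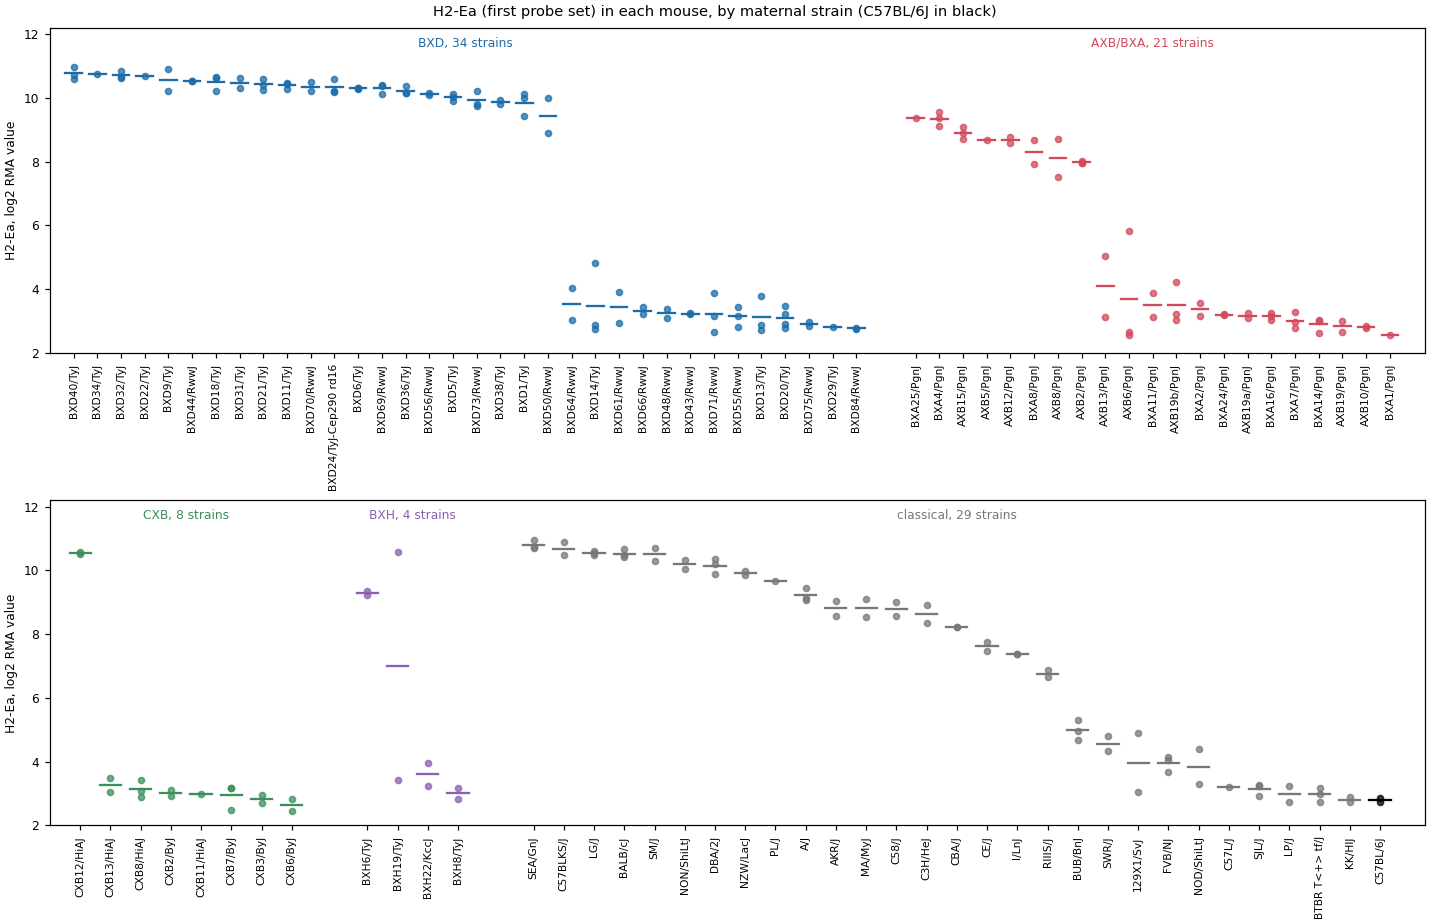
H2-Ea log2 RMA signal (1422892_PM_s_at) in each of 220 mice, by maternal strain and panel; points are mice, and strains run in the order of their means within a panel. High and low strains are separated in every panel, and the 2 BXH19/TyJ mice (3.43 and 10.57) lie on opposite sides.

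In the BXD panel 21 strains were high (9.44 to 10.77) and 13 low (2.77 to 3.54), with nothing in the 5.90 log2 units between. The high strains were, from the top, BXD40/TyJ, BXD34/TyJ, BXD32/TyJ, BXD22/TyJ, BXD9/TyJ, BXD44/RwwJ, BXD18/TyJ, BXD31/TyJ, BXD21/TyJ, BXD11/TyJ, BXD70/RwwJ, BXD24/TyJ-Cep290<rd16>/J, BXD6/TyJ, BXD69/RwwJ, BXD36/TyJ, BXD56/RwwJ, BXD5/TyJ, BXD73/RwwJ, BXD38/TyJ, BXD1/TyJ and BXD50/RwwJ. The low ones were, from the bottom, BXD84/RwwJ, BXD29/TyJ, BXD75/RwwJ, BXD20/TyJ, BXD13/TyJ, BXD55/RwwJ, BXD71/RwwJ, BXD43/RwwJ, BXD48/RwwJ, BXD66/RwwJ, BXD61/RwwJ, BXD14/TyJ and BXD64/RwwJ. The 21 high means fell in a narrow band around the DBA/2J mean of 10.15. Neighbours within either side differed by less than the pooled SD of 0.63 of mice within a strain, which includes the BXH19/TyJ mice.

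The AXB/BXA panel leaned the other way, with 8 high strains (7.98 to 9.38) and 13 low strains (2.56 to 4.10). BXA25/PgnJ, BXA4/PgnJ, AXB15/PgnJ, AXB5/PgnJ, AXB12/PgnJ, BXA8/PgnJ, AXB8/PgnJ and AXB2/PgnJ were high, in that order. BXA1/PgnJ, AXB10/PgnJ, AXB19/PgnJ, BXA14/PgnJ, BXA7/PgnJ, BXA16/PgnJ, AXB19a/PgnJ, BXA24/PgnJ, BXA2/PgnJ, AXB19b/PgnJ, BXA11/PgnJ, AXB6/PgnJ and AXB13/PgnJ were low, from the bottom. Their high strains lay near or below the A/J mean of 9.22, with BXA25/PgnJ and BXA4/PgnJ above it, and all lay below the lowest high BXD strain, BXD50/RwwJ at 9.44. That order between panels is a description of strain means, without a test.

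Among the 8 CXB strains CXB12/HiAJ alone was high, at 10.52 and 10.58 in its 2 mice, beside the BALB/cJ mean of 10.52. The 7 low strains were CXB6/ByJ, CXB3/ByJ, CXB7/ByJ, CXB11/HiAJ, CXB2/ByJ, CXB8/HiAJ and CXB13/HiAJ, at 2.65 to 3.28. In the BXH panel BXH6/TyJ was high (9.22 and 9.36) and BXH8/TyJ (3.01 ± 0.24, SD) and BXH22/KccJ (3.60 ± 0.52) were low. BXH19/TyJ cannot be placed, since mouse 1 had 3.43 and mouse 2 had 10.57. With 1 mouse left, and the spread taken from the other strains, its H2-Ea difference from C57BL/6J was 7.77 without mouse 1 (limma adjusted p = 3.91e-25) and 0.63 without mouse 2 (limma adjusted p = 0.713).

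The classical strains filled more of the range. The high ones were SEA/GnJ (10.80), C57BLKS/J (10.68), LG/J (10.55), BALB/cJ (10.52), SM/J (10.50), NON/ShiLtJ (10.19), DBA/2J (10.15), NZW/LacJ (9.91), PL/J (9.67), A/J (9.22), AKR/J (8.81), MA/MyJ (8.81), C58/J (8.79), C3H/HeJ (8.62), CBA/J (8.22), CE/J (7.61), I/LnJ (7.37) and RIIIS/J (6.76). SEA/GnJ, the highest of the 96 strains, had 10.95, 10.74 and 10.70 in its 3 mice. The low ones were BUB/BnJ (4.98), SWR/J (4.57), 129X1/SvJ (3.97), FVB/NJ (3.95), NOD/ShiLtJ (3.84), C57L/J (3.20), SJL/J (3.14), LP/J (2.99), BTBR T<+> tf/J (2.97), KK/HlJ (2.81) and C57BL/6J (2.80). From textbook knowledge, LP/J, C57L/J, 129X1/SvJ and BTBR T<+> tf/J share the b haplotype with C57BL/6J, SJL/J has the s haplotype, and SWR/J, FVB/NJ and BUB/BnJ have the q haplotype.

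H2-Ea was higher than in C57BL/6J in 51 of the 95 strains and lower in none (limma, adjusted over all probe sets and contrasts), against 1.31% of all contrasts of all probe sets called higher and 1.23% called lower. The called strains were the 50 above the empty stretch, BXH19/TyJ by its mean among them, and BUB/BnJ, which had 5.31, 4.96 and 4.68. Of these strains 5 had 1 mouse each, which is assumed to vary like the mice of other strains. The call in BXH19/TyJ was lost without its mouse 2, and without either BXH19/TyJ mouse SWR/J was called as well (difference 1.77, limma adjusted p = 0.00803 without mouse 1 and 0.115 with all mice). For BUB/BnJ the difference was 2.18 (adjusted p = 0.0137), which failed without C57BL/6J mouse 1 (adjusted p = 0.158) and without mouse 2 (adjusted p = 0.127), and the second H2-Ea probe set gave 0.67 (adjusted p = 0.460). That second probe set, 1422891_PM_at, called exactly the 50 others, and its strain means had r = 0.985 with those of the first over the 96 strains. The remaining probe set, 1426202_PM_at, averaged 2.76 with no contrast called.

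A few mice of low strains stood above their mates in H2-Ea. AXB6/PgnJ mouse 2 had 5.82, against 2.67 and 2.57 in the other two. One BXD14/TyJ mouse had 4.82 and its mates 2.76 and 2.87, AXB13/PgnJ had 5.05 and 3.14, and 129X1/SvJ had 4.90 and 3.03. On the second probe set AXB6/PgnJ mouse 2 had 4.55, against 3.78 and 3.75, and the AXB13/PgnJ mice had 4.62 and 3.97. The 129X1/SvJ mice lay close together there, at 4.38 and 4.28.

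The other 8 genes moved within a much narrower range, 1.49 to 2.49 log2 units between the lowest and highest strain. Of their 760 contrasts with C57BL/6J on the standing probe sets, 9 were called higher (1.18%) and 10 lower (1.32%), close to the 1.31% and 1.23% of all probe sets. They fell in 12 strains. When C57BL/6J mouse 1 was left out 3 of the 19 still passed, without mouse 2 also 2, and only H2-Aa in BXD50/RwwJ and H2-Eb1 in FVB/NJ passed in both cases. Over all their probe sets these 8 genes had 58 called contrasts, and the comparison with all probe sets covers only the standing ones.

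**Figure D2:**
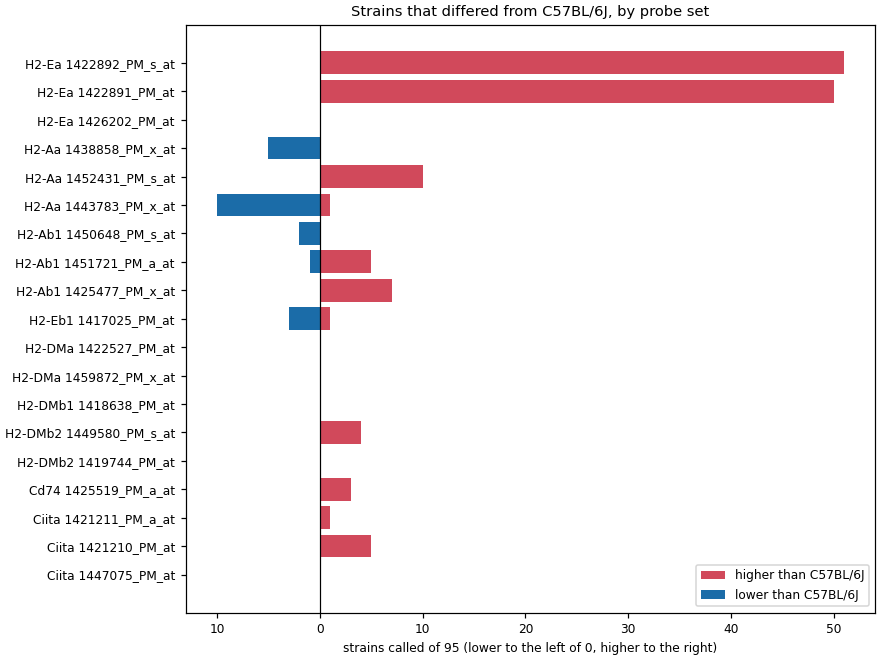
Number of the 95 strains called higher or lower than C57BL/6J (limma, adjusted p under 0.05) for each of the 19 member probe sets. On the standing probe sets H2-Ea has 51 higher and 0 lower, and no other gene has more than 5 in one direction. Further probe sets have 10 higher (H2-Aa 1452431_PM_s_at), 10 lower (H2-Aa 1443783_PM_x_at) and 7 higher (H2-Ab1 1425477_PM_x_at).

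H2-Aa, the A alpha chain, ran between 10.13 and 11.77 in strain means (median 11.16). In BXD50/RwwJ its mice had 10.42 and 9.83, and both were below the C57BL/6J mice at 11.10 and 11.32. The difference was -1.08 ± 0.21 (SE), 2.12-fold lower, with a limma adjusted p of 0.00024 (0.00439 without C57BL/6J mouse 1 and 0.0247 without mouse 2). FVB/NJ mice had 10.67, 10.18 and 10.26 (difference -0.84, adjusted p = 0.00304, 0.108 without C57BL/6J mouse 2). AXB2/PgnJ (-0.77, adjusted p = 0.0083), BXD55/RwwJ (-0.67, adjusted p = 0.0269) and BXD5/TyJ (-0.62, adjusted p = 0.0497) were also called lower, and these 3 did not pass when either C57BL/6J mouse was left out. The call in BXD5/TyJ was also lost without either BXH19/TyJ mouse (adjusted p = 0.0506 without mouse 1). CXB7/ByJ was highest at 11.77, with AXB10/PgnJ at 11.61 and BXA11/PgnJ at 11.59 next, and none of these was called.

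The 3 H2-Aa probe sets did not tell the same story. The standing one, 1438858_PM_x_at, called 5 strains lower, 1452431_PM_s_at called 10 higher, and 1443783_PM_x_at called 10 lower and 1 higher. No strain was called in opposite directions. Their strain means had r = 0.57 for the standing set with 1452431_PM_s_at, 0.89 for the standing set with 1443783_PM_x_at and 0.35 for the last pair. In A/J the H2-Aa difference from C57BL/6J was 0.03 on the standing set, 1.02 on 1452431_PM_s_at (adjusted p = 0.0101) and -0.38 on 1443783_PM_x_at. Suffixes x and s mark probes that can bind more than 1 transcript, and whether alleles differ under the probes was not tested. A direction for H2-Aa in a strain is therefore given here with its probe set.

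H2-Ab1, the A beta chain, had strain means of 9.22 to 10.71. It was called lower in AXB2/PgnJ (mice 9.18, 9.35 and 9.15) and in BXD50/RwwJ (9.79 and 8.65), against 10.01 and 10.16 in C57BL/6J. The differences were -0.86 in each, with limma adjusted p-values of 0.0210 and 0.0400, and neither passed when either C57BL/6J mouse was left out. The AXB2/PgnJ mice lay together below both C57BL/6J mice, while those of BXD50/RwwJ lay far apart. BXD55/RwwJ, with 8.78, 10.09 and 9.20, had the next lowest mean of H2-Ab1, 9.36. At the upper end AXB6/PgnJ had 10.71, BXA7/PgnJ 10.71 and CXB7/ByJ 10.70. On the other H2-Ab1 probe sets, 1451721_PM_a_at called 5 strains higher and 1 lower and 1425477_PM_x_at called 7 higher and 0 lower, although the strain means of the 3 had r between 0.84 and 0.93.

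H2-Eb1, the E beta chain, was lowest in FVB/NJ and SWR/J. FVB/NJ mice had 9.37, 8.83 and 9.48 and SWR/J mice 9.20 and 9.52, all below the 10.44 and 10.52 of C57BL/6J. The H2-Eb1 difference was -1.25 ± 0.25 (SE) in FVB/NJ, 2.39-fold lower (limma adjusted p = 0.00061, 0.0268 and 0.0284 without each C57BL/6J mouse in turn), and -1.12 ± 0.28 in SWR/J (adjusted p = 0.0091, 0.103 and 0.0897 without each). BUB/BnJ, which is also of the q haplotype, had H2-Eb1 values of 9.76, 9.96 and 9.87 and was not called. BXD50/RwwJ followed with 10.11 and 8.92 (difference -0.97, adjusted p = 0.033). BXA7/PgnJ, the highest strain at 11.31, was called higher (0.83, adjusted p = 0.0493, and 0.0501 without BXH19/TyJ mouse 1), with CXB11/HiAJ at 11.30 and AXB10/PgnJ at 11.20 next. Of these 4 calls only that of FVB/NJ held when either C57BL/6J mouse was left out. H2-Eb1 has 1 probe set, so no call could be checked on another, and whether alleles differ under its probes was not tested.

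H2-DMa, the alpha chain of the peptide exchanger, ran between 6.49 (AXB2/PgnJ) and 8.17 (129X1/SvJ) with C57BL/6J at 7.33, and no strain differed from C57BL/6J by the test. The lowest strains after AXB2/PgnJ were BXD50/RwwJ at 6.70 and FVB/NJ at 6.74, and the highest before 129X1/SvJ were CXB7/ByJ at 8.08 and BXA4/PgnJ at 8.06. H2-DMb1, one of its beta chains, ran between 5.10 (BXD50/RwwJ) and 6.96 (BXH6/TyJ), also with no call. SWR/J (5.39) and BXD55/RwwJ (5.40) stood next at the low end of H2-DMb1, and 129X1/SvJ (6.88) and BXA4/PgnJ (6.79) at the high end.

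H2-DMb2, the second beta chain, was called higher in 4 strains. BXH6/TyJ mice had 8.25 and 8.25, BXA4/PgnJ mice 8.33, 7.99 and 8.35, 129X1/SvJ mice 7.90 and 8.45 and A/J mice 7.88, 8.29 and 8.15, all above the 7.15 and 7.32 of C57BL/6J. The differences were 1.01 (adjusted p = 0.0266), 0.99 (0.0149), 0.94 (0.0471) and 0.87 (0.0424) by limma. None of the 4 passed when either C57BL/6J mouse was left out. All 4 rest on 1449580_PM_s_at, whose suffix s marks probes that can bind more than 1 transcript. The other H2-DMb2 probe set, 1419744_PM_at, averaged 2.76 and called no strain. Strain means of both probe sets had r = 0.19. The lowest H2-DMb2 means were those of BXD55/RwwJ (6.49), BXD50/RwwJ (6.54) and BXD75/RwwJ (6.68).

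Cd74, the invariant chain, has 1 probe set and ran between 8.39 and 10.06 in strain means. A/J mice had 9.88, 10.08 and 10.14, BXA4/PgnJ mice 10.08, 9.92 and 10.19, and the AXB6/PgnJ mean was 10.03, against 9.12 and 9.25 in C57BL/6J. These 3 strains were called higher, by 0.85 ± 0.24 (SE), 0.88 ± 0.24 and 0.84 ± 0.24, or about 1.8-fold, with limma adjusted p-values of 0.0285, 0.0211 and 0.0302. All 3 were lost when either C57BL/6J mouse was left out. BXA25/PgnJ, with 1 mouse at 10.05, was not called. BXD50/RwwJ (8.77 and 8.00), BXD55/RwwJ (8.37, 9.05 and 8.32) and BXD75/RwwJ (8.35 and 8.92) had the lowest Cd74 means, and all their mice lay below C57BL/6J, yet no strain passed the test in that direction.

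Ciita, the activator, had its highest level in BXH6/TyJ, at 6.17 and 5.83 in 2 mice, against 4.28 and 4.43 in C57BL/6J. The difference was 1.65 ± 0.40 (SE), 3.13-fold, with a limma adjusted p of 0.00783, and it missed the threshold without C57BL/6J mouse 1 (adjusted p = 0.153) and narrowly without mouse 2 (adjusted p = 0.0511). On the probe set 1421210_PM_at the BXH6/TyJ difference was 1.38 (adjusted p = 0.000478) and still passed when either C57BL/6J mouse was left out (0.0383 and 0.0083), but C57BL/6J averaged 2.83 there, under the median of all probe set means. AXB19/PgnJ and 129X1/SvJ followed at 5.34 each, and BXD55/RwwJ (3.51), PL/J (3.55, 1 mouse) and BXD50/RwwJ (3.60) were lowest. Mice within a strain differed more for Ciita than for the other 7 genes apart from H2-Ea, with an SD of 0.41. Over the 3 Ciita probe sets the strain means had r between 0.53 and 0.81.

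Some strains stood at the same end for most of these genes. Over the 8 genes other than H2-Ea, BXD50/RwwJ and BXD55/RwwJ were among the 5 lowest strains in 8 of 8, AXB2/PgnJ in 6, FVB/NJ in 5 and BXD75/RwwJ in 4. CXB7/ByJ was among the 5 highest in 7 of 8. These ends were not uniform within a strain. BXD55/RwwJ mouse 2 had 11.27 for H2-Aa and 10.42 for H2-Eb1, beside 9.91 and 9.08 in mouse 1, and CXB7/ByJ mouse 3 had 10.46 for Cd74 and 8.76 for H2-DMa, beside 9.48 and 7.58 in mouse 2. BXD50/RwwJ was at the same time high in H2-Ea, at 9.98 and 8.89.

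**Figure D3:**
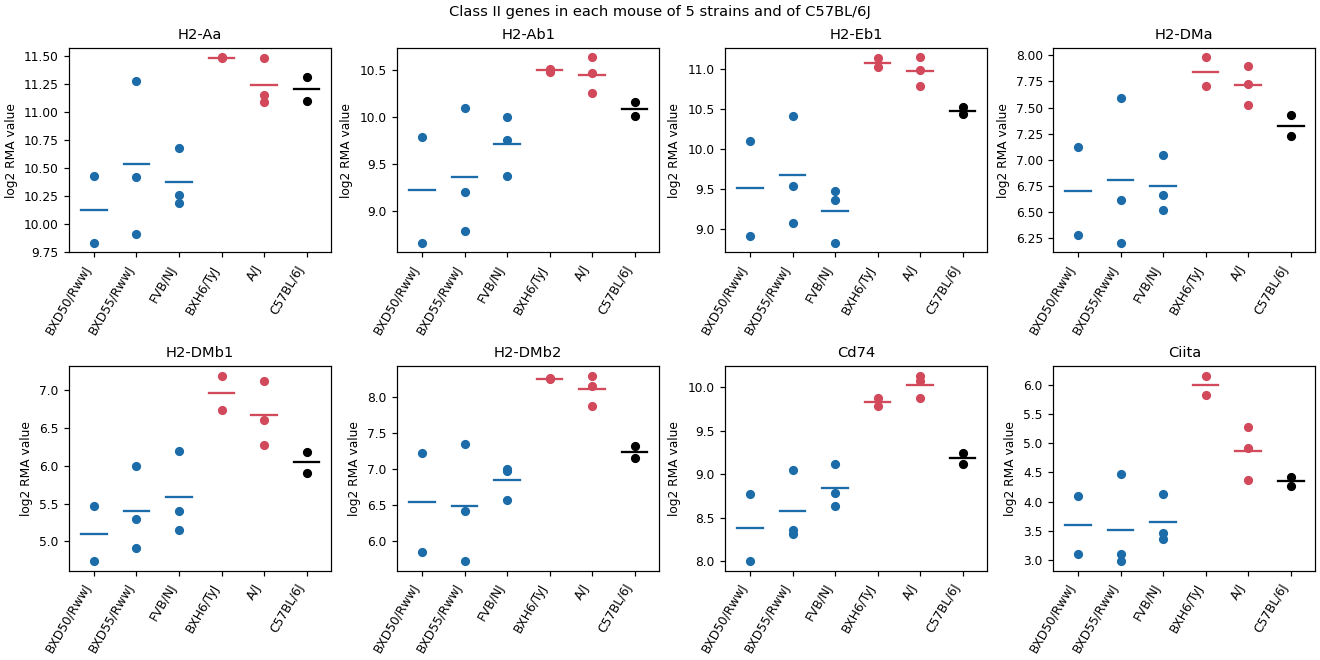
Log2 RMA signal of the 8 genes other than H2-Ea in each mouse of BXD50/RwwJ, BXD55/RwwJ, FVB/NJ, BXH6/TyJ, A/J and C57BL/6J, where points are mice. BXD50/RwwJ and FVB/NJ lie below C57BL/6J for H2-Aa, FVB/NJ for H2-Eb1, and BXH6/TyJ above it for Ciita.

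**Figure D4:**
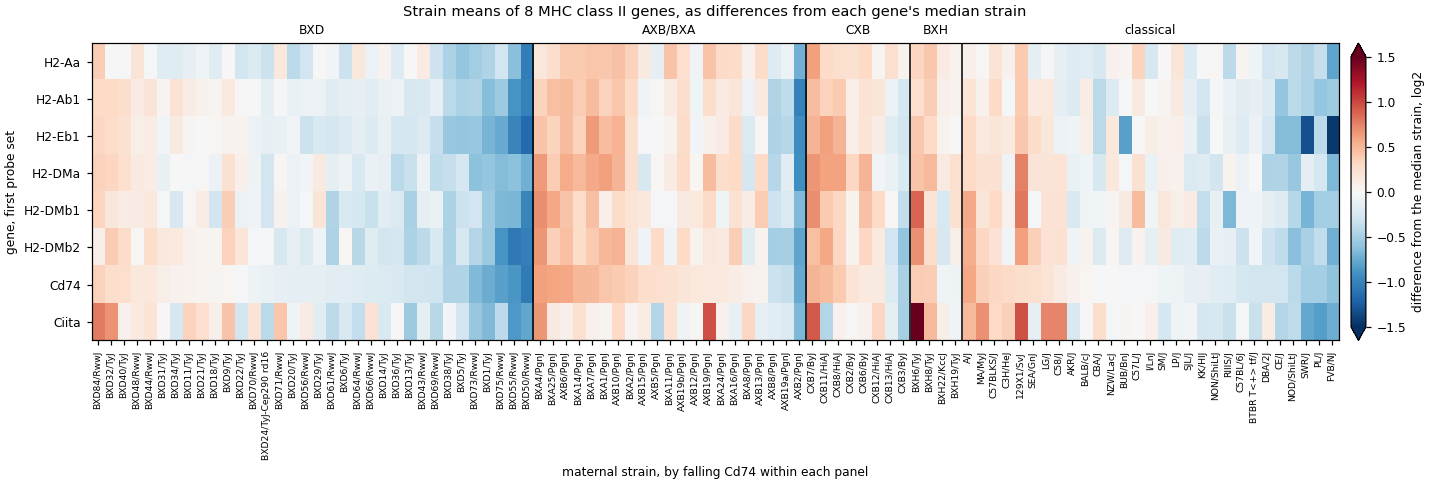
Strain means of the 8 genes other than H2-Ea as differences (log2) from each gene's median over the 96 strains, with strains grouped by panel. The 8 genes tend to shade together in a strain, as in BXD50/RwwJ and BXD55/RwwJ.

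Of the progenitors, only A/J differed from C57BL/6J in a gene other than H2-Ea on the standing probe sets, in Cd74 and H2-DMb2 as above. BALB/cJ, C3H/HeJ and DBA/2J had no call among the 8 genes. For Cd74 their differences were 0.30 (adjusted p = 0.694), 0.56 (adjusted p = 0.325) and -0.01 (adjusted p = 0.994) by limma.

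Within panels the members varied between strains as well. By limma's F-test 15 of the 19 member probe sets passed within BXD, where 35.1% of all probe sets did, 14 within AXB/BXA (29.3%), 16 within the classical strains (40.7%), 9 within CXB (17.0%) and 3 within BXH (3.05%). H2-Ea passed in all 5 panels, with adjusted p-values between 1.23e-66 in BXD and 1.33e-16 in BXH (1.66e-27 without BXH19/TyJ). In CXB the standing probe sets of Cd74 (adjusted p = 0.0103), H2-DMa (0.0117) and H2-DMb2 (0.0118) also passed, but with the CXB mice fitted alone they had adjusted p-values of 0.158, 0.227 and 0.274 and did not. In BXH Ciita did (adjusted p = 0.0118, and 0.0253 without BXH19/TyJ), its level in BXH6/TyJ standing above the other 3 strains. Within AXB/BXA the standing Ciita probe set did not pass (adjusted p = 0.0837), and 1421210_PM_at did (0.0275). With the BXH mice fitted alone, 1 member probe set passed, and H2-Ea had an adjusted p of 0.198 there.

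Between the panels the differences were small. In limma's F-test on strain means 5 of 19 member probe sets passed, where 6.77% of all did: 2 of H2-Aa (adjusted p = 0.000178 for the standing one) and 1 each of H2-DMa (0.00768), Cd74 (0.0125) and H2-DMb1 (0.0183). H2-Aa averaged 10.98 ± 0.28 (SD over strains) in BXD, 11.34 ± 0.29 in AXB/BXA, 11.42 ± 0.18 in CXB, 11.39 ± 0.17 in BXH and 11.06 ± 0.25 in the classical strains. Cd74 had the lowest mean in BXD too, 9.27 ± 0.33, beside 9.65 ± 0.34 in AXB/BXA, 9.60 ± 0.34 in CXB, 9.61 ± 0.26 in BXH and 9.40 ± 0.28 in the classical strains. The ranges of the panels overlapped for both genes. H2-Ea did not pass between panels (adjusted p = 0.0902).

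Because Cd74 serves every class II molecule, the other members were set against it over strain means, in a family of 9 relations with permutation p-values adjusted by Benjamini-Hochberg. With Cd74, H2-Ab1 had r = 0.914 (rho = 0.892), H2-DMb2 r = 0.914 (rho = 0.901), H2-Eb1 r = 0.884 (rho = 0.910), H2-DMa r = 0.866 (rho = 0.851), H2-DMb1 r = 0.842 (rho = 0.826), H2-Aa r = 0.779 (rho = 0.720) and Ciita r = 0.692 (rho = 0.700). Whether these values differ was not tested. Each of these 7 had a permutation p of 1e-05, the smallest the resamples can give (adjusted p = 1.29e-05). Without the 2 strains farthest from the median of Cd74, r was 0.661 to 0.899, and without BXH19/TyJ it was 0.692 to 0.915. Strain means share their arrays, so a mouse high in one gene can lift several strain means at once.

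**Figure D5:**
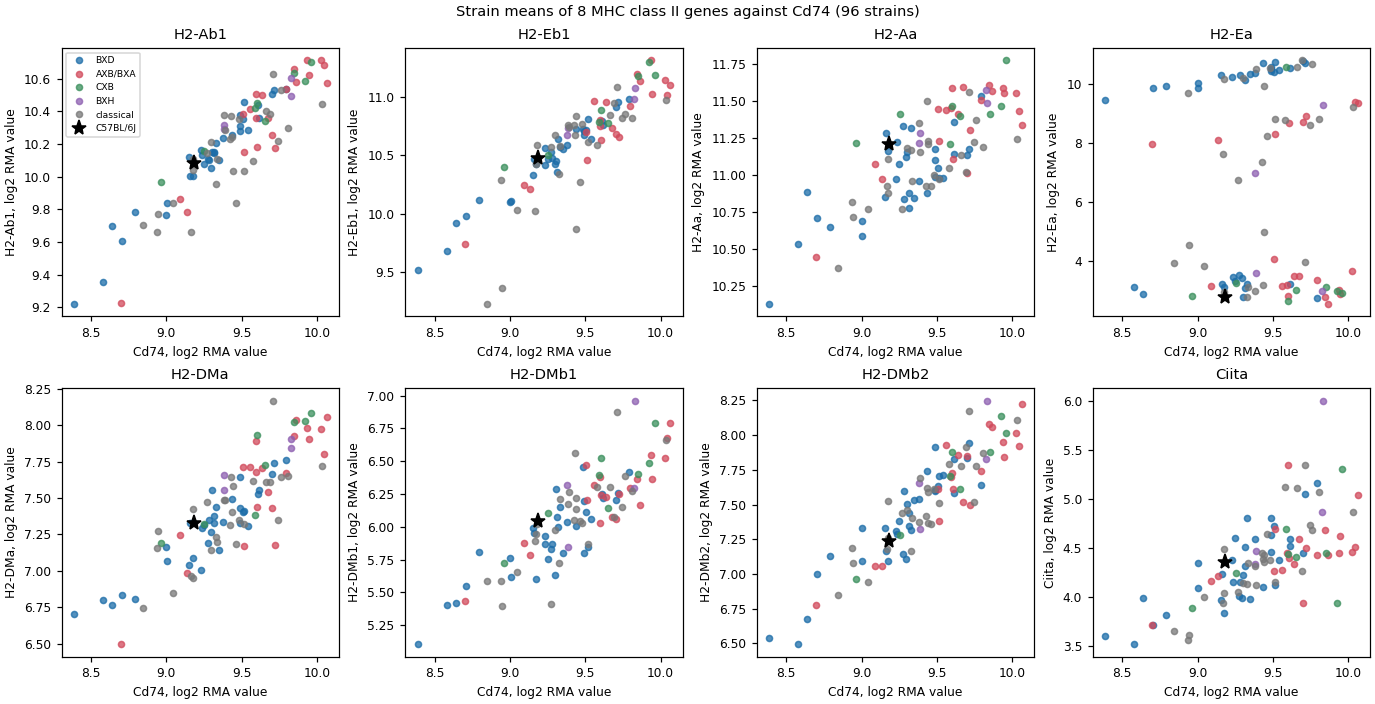
Strain means (log2 RMA signal) of the other members against Cd74, 1 point per strain, coloured by panel. The 7 genes other than H2-Ea rise with Cd74, and H2-Ea splits into strains above and below its empty stretch.

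H2-Ea was set against Cd74 only within each side of its empty stretch. Over the 50 high strains r was 0.081 (rho = 0.160, permutation p = 0.579, adjusted p = 0.579) and over the 46 low strains -0.183 (rho = -0.185, permutation p = 0.223, adjusted p = 0.251). Within panels the high strains looked different. In BXD the 21 high strains had r = 0.945 (rho = 0.914, permutation p = 1e-05, adjusted p = 1.84e-05 over 35 relations, r = 0.899 without 2 strains) and in AXB/BXA the 8 high strains had r = 0.937 (rho = 0.976, exact permutation p = 0.000198, adjusted p = 0.000316, r = 0.975 without 2 strains). Among the 18 high classical strains r was 0.162 (permutation p = 0.518). The low strains had r between -0.191 and 0.060 in the 4 panels with enough strains. Whether r differs between panels was not tested.

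The other 7 genes followed Cd74 within each panel of at least 6 strains as well, with r of 0.74 to 0.98 in BXD, 0.56 to 0.94 in AXB/BXA, 0.52 to 0.98 in CXB and 0.66 to 0.88 in the classical strains. Of all 35 within-panel relations 28 passed an adjusted p of 0.05. In the 8 CXB strains H2-Aa (r = 0.650, exact permutation p = 0.0864) and Ciita (r = 0.524, exact permutation p = 0.180) did not. For Ciita in AXB/BXA (r = 0.556) the relation rested on 2 strains, and r was 0.273 without them. BXH has too few strains. The share of all genes that would pass such relations was not computed, so the count of 28 does not set the members apart. Over the 96 strains Oxct1, a gene outside the members, had r = 0.878 with Cd74.

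The same genes also moved together between mice of 1 strain. Over deviations of 211 mice from their strain means, r with Cd74 was 0.904 for H2-Eb1, 0.875 for H2-Ab1, 0.853 for H2-DMb2, 0.826 for H2-DMa, 0.747 for H2-Aa, 0.662 for H2-DMb1 and 0.635 for Ciita, with rho between 0.601 and 0.908 and a permutation p of 1e-05 each, the smallest possible (adjusted p = 1.14e-05 over 8 relations). For H2-Ea r was 0.200 (rho = 0.365, permutation p = 0.00098), and 0.286 without the BXH19/TyJ mice. The H2-Ea deviations were not split by side of the empty stretch here.

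Some marker lists of cells that could carry these genes moved with Cd74 over the 96 strains, and others did not. Mean z-scores of 9 marker lists were compared, so that a score of 0 is the average of all strains. The dendritic cell list had r = 0.725 with Cd74 (rho = 0.721) and the macrophage and Kupffer cell list r = 0.688 (rho = 0.663), the stellate cell list 0.604 (rho = 0.541) and the cholangiocyte list 0.577 (rho = 0.530), each with a permutation p of 1e-05 (adjusted p = 1.8e-05). The hepatocyte list went the other way (r = -0.629, rho = -0.561, permutation p = 1e-05, adjusted p = 1.8e-05). The neutrophil list had r = 0.394 (rho = 0.422, adjusted p = 0.00018) and the T cell list r = 0.340 (rho = 0.344, adjusted p = 0.000849), both by permutation. The endothelial list had r = -0.230 (rho = -0.265, permutation p = 0.0239, adjusted p = 0.0269), and the B cell list r = 0.006 (rho = 0.091, permutation p = 0.952, adjusted p = 0.952). Within panels 22 of 36 such relations passed an adjusted p of 0.05, and no share over other gene lists was computed beside it. In CXB the dendritic cell list had r = 0.166, and the macrophage and Kupffer list fell to -0.03 without 2 strains.

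Many defining markers of these lists were near the floor. Of 10 dendritic cell genes 7 were measured, and Xcr1, Flt3 and Zbtb46 averaged 2.79, 3.40 and 3.80, while Itgax averaged 6.42 and had r = 0.78 with Cd74. The other measured dendritic cell genes had r between -0.16 (Zbtb46) and 0.45 (Batf3). In the stellate cell list Col3a1, Col1a1 and Dcn had r = 0.78, 0.77 and 0.75, while Lrat, Reln and Des had -0.23, -0.06 and 0.15. Among 8 measured B cell genes Pax5 averaged 2.81 and Ms4a1 3.31, and Cd22 at 6.29 had r = 0.72 with Cd74 while the 7 others had r between -0.34 and -0.04. All 12 measured macrophage and Kupffer cell genes varied between strains, but not all of them followed Cd74. Cd68, a lysosomal glycoprotein of macrophages, had r = 0.79 and Csf1r 0.61, while the Kupffer cell receptors Clec4f and Vsig4 had -0.25 and -0.10, and Timd4 and Marco -0.10 and -0.09. BXD50/RwwJ and BXD55/RwwJ, lowest in most members, scored -0.77 and -0.69 on the dendritic cell list and -0.68 and -1.18 on the macrophage and Kupffer cell list, against -0.24 and -0.21 in C57BL/6J. BXD50/RwwJ was nevertheless the highest strain for the macrophage receptors Timd4 (6.65) and Marco (8.03), and it had the highest hepatocyte score (1.02), with stellate and cholangiocyte scores of -1.60 and -1.43. BXH6/TyJ, highest in Ciita, scored 0.32 and 0.88 on these lists and 2.17 on the T cell list, the highest of all strains on the last. The 6 measured T cell genes averaged 3.14 to 3.86, near the median of 3.46 over all probe set means. Of these, 3 varied between strains. The part of cell numbers in the strain differences was not tested.

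Of 30 accessory and regulatory genes of class II presentation 28 were measured, and 25 varied between strains (all but Rfxap, H2-Eb2 and Ifng), against 10113 of 17097 genes (59.2%). Their median share of variance between strains was 0.459, beside 0.251 over all genes. The largest shares were those of the lysosomal enzymes Ctss (0.720), the protease that trims the invariant chain, and Lgmn (0.708), then Ifngr1 (0.675), a chain of the interferon gamma receptor, Ctsl (0.658), Ifi30 (0.607), a lysosomal thiol reductase, and Nfyb (0.583), a subunit of the factor that binds the Y box. Ctss strain means ran between 10.75 in NOD/ShiLtJ and 12.27 in A/J. With Cd74 their strain means had r = 0.84 for Ctss, 0.78 for Lgmn, 0.84 for Ifngr1, 0.41 for Ctsl, 0.74 for Ifi30 and -0.44 for Nfyb. Rfx5, a subunit of the factor that binds the X box, was picked after its values were seen and had r = 0.00.

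The genes most like each member were sought among 10104 others that varied between strains, by r over the 96 strain means. For H2-Ea they were Msh5 (0.745), Lst1, Glo1, H2-T24 and Wdr46 (0.521), and all 5 lie on chromosome 17 as H2-Ea does, where 4.79% of the 10060 searched genes with a known chromosome lie. H2-Ea falls into separate clusters of strains, so these values only describe how far a gene follows that split. For the other 6 members on chromosome 17, 2 of the 30 places went to genes of that chromosome, Rab31 beside H2-Aa and Myo1f beside H2-DMb1. H2-Aa was nearest to Fes (0.728), C1qb, Rab31, Gpr65 and Klhl6 (0.718), and H2-Ab1 to Fcer1g (0.822), Myof, Oxct1, Lair1 and Cttnbp2nl (0.810). H2-Eb1 was nearest to Actr3 (0.839), Lair1, Ms4a6c, Myof and Ly86 (0.813), and H2-DMa to C1qb (0.843), C1qc, Lair1, Fcer1g and BC028528 (0.813). For H2-DMb1 they were Tmsb4x (0.818), Cd52, Was, Evl and Myo1f (0.776), and for H2-DMb2 Evi2a (0.867), Fcer1g, BC028528, Cybb and Actr3 (0.863). Cd74 was nearest to Oxct1 (0.878), Myof, Rgs10, Cmtm3 and Fcer1g (0.851), and Ciita to Irf8 (0.699), Tmem229b, Pkm, Myo1f and Apobec3 (0.674). Fcer1g, the gamma chain of Fc receptors, recurred for 4 members, the inhibitory receptor Lair1 and Myof for 3 each, and Oxct1, Actr3, BC028528, Myo1f and C1qb for 2 each. C1qb and C1qc encode complement proteins known to be made by macrophages.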

How the data were processed

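The arrays, 1 per mouse, were of the Affymetrix type HT MG-430 PM. The values deposited by the authors are log2 signals that GCOS and RMA produced, in versions not stated in the labels, and they entered the fits unchanged, without 104 array controls. Probe sets were named through GEO's platform table and RefSeq. Strains were read from the labels and panels from the strain names. The members and the gene lists were chosen with earlier results of these data known.

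Moderated F-tests and contrasts were fitted in limma 3.58.1 (R 4.3.3) on 1 mean per strain, with Benjamini-Hochberg adjustment over all 45037 probe sets, and for contrasts over all 95 strains too (124 residual degrees of freedom), at an adjusted p of 0.05. The fits were tested on simulated data. Share of variance came from a one-way random-effects model. Tests were two-sided. Relations used 100000 permutations, or exact permutation under 10 strains. The number of arrays limits the precision. Text names all 9 genes, the 3 highest and 3 lowest strains of each, C57BL/6J and the progenitors, all strains for H2-Ea, and the 5 most alike genes per member. Alternatives covered centring, a signal filter, the prior, leaving out replicates, panels alone, and doubtful mice, the last chosen after seeing the data.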

Additional observations from a re-analysis of the deposited data

Results flagged for a closer look

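One value among 19 member probe sets tested in BXD20/TyJ, the only strain with 4 mice, lay far from the others. On the H2-Ab1 probe set 1451721_PM_a_at the highest mouse, mouse 2, had 10.40 and the others 10.02 to 10.07, so that its gap to the next mouse was 0.876 of the whole range. Chance alone sets apart about 1 group in 20. The same mouse was most like CXB11/HiAJ (r = 0.901) rather than its own strain (r = 0.665) on the 46 probe sets used to check the labels.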

How the results depend on the processing

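The strain effect passed in 15 member probe sets under every alternative run except the signal filter, which tests fewer probe sets and gave 14. The count of contrasts called over the member probe sets, 159 (101 of them in H2-Ea), was 102 to 131 when replicates were left out, a C57BL/6J mouse included, and 69 for the classical strains alone, which hold fewer contrasts. It was 182 with the filter, 166 with each contrast adjusted on its own, 157 with arrays shifted to the same median and 153 with a trended prior. The panel effect, in 5 probe sets, ranged over 4 to 8 when replicates were left out. Within CXB the count of 9 ranged over 3 to 11 without 1 replicate, and was 2 with the panel fitted alone. Within BXH the count of 3 was 1 with the panel fitted alone. For these changes the cause was not tested. The counts cover member probe sets alone, so they do not show whether calls changed over the whole array too. Leaving out BXH19/TyJ mouse 1 or mouse 2 gave 158 and 156 contrasts, and leaving out the 3 mice most like another strain gave 157; these alternatives were added after seeing the data. Another probe set for Cd74, H2-Eb1 or H2-DMb1 could not be tried because each has 1. No paired analysis was possible because the labels give no replicate numbers that link mice across strains. Array number and the 2 C57BL/6J mice limit the contrasts, and signal near the array median limits Ciita and low H2-Ea strains.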
